A study of Drosophila melanogaster with 2 samples.

Results

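The genes described here are 10 regulators of maternal mRNA in Drosophila melanogaster: orb, the 3 genes of the PNG kinase complex (plu, gnu and png), nos, pum, smg, cup, stau and osk. They were chosen by name, for the roles of their proteins, out of 18277 annotated genes on 7 chromosomes. A peak was counted for a gene when its summit lay in the gene body or within 1 kb of an annotated transcript start. Chromatin immunoprecipitation with sequencing (ChIP-seq) had been done with an anti-GFP antibody on whole embryos aged 0 to 24 hours, from transgenic flies that carry a fusion of Wdn, a zinc finger protein, with eGFP. There was 1 group of embryos with 2 biological replicates and no second genotype, so no contrast between conditions exists. Whole embryos of all these ages mix every embryonic cell type, and neither the promoter behind the fusion protein nor the rest of the genotype is given in the sources used here.

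In flies the early embryo runs on mRNA that the mother placed in the egg, and the proteins encoded by these genes decide when and where that mRNA is translated and when it is destroyed. Egg activation switches on the PNG kinase, which releases many stored mRNAs from repression, and Smaug then directs the decay of a large part of the maternal set. At the posterior pole, Staufen and Oskar assemble the germ plasm where nanos mRNA is kept and translated. ChIP-seq measures where a DNA-binding protein sits on these genes, not whether their mRNA is made.

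The sequences under 5 summits are shown first, because they show how unlike each other the occupied sites of these genes were. Each is the 101 bases centred on a summit, read from the RefSeq copy of the dm6 assembly and written 5′ to 3′ on the strand of the gene named. Capitals mark unbroken runs of 6 or more A or T letters. The orb summit lies between orb and the next gene (chr3R:23281059-23281159, minus strand). The 2 pum summits are intronic (chr3R:9227422-9227522 and chr3R:9224936-9225036, minus strand). The smg pair consists of an intronic summit (chr3L:8996301-8996401, minus strand) and the summit just upstream of the first start (chr3L:8997996-8998096, minus strand). The intronic one is 102 bp upstream of an internal smg start.
orb, upstream: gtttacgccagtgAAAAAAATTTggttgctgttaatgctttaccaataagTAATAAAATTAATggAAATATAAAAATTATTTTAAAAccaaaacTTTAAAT
pum, 632 bp upstream of an internal start: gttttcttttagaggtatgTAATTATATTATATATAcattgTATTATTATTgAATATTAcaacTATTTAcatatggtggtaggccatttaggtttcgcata
pum, 1854 bp downstream of that start: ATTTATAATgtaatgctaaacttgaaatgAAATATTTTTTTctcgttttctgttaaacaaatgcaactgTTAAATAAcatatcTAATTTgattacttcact
smg, intronic: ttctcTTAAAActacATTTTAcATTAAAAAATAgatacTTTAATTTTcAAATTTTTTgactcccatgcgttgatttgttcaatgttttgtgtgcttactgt
smg, upstream: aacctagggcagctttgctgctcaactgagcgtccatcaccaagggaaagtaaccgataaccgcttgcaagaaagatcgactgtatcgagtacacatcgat

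The orb window held 4 such runs, the longest of 22 letters. Runs of at least 22 letters were found in 3.14% of the windows of the same length at all peaks of the main list. That cut was taken from the orb window itself. Runs of at least 10 letters were in 36.4% of the windows of these genes' main-list peaks, against 47.8% of all main-list windows. The upstream smg window held none. A coding-exon summit of nos also held none (chr3R:19157845-19157945, plus strand), and its window is the most G- and C-rich of those shown here.
nos, coding exon: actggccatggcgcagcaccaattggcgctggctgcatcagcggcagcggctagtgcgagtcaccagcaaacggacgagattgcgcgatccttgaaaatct

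Wdn-eGFP peaks were found at 6 of the 10 genes, orb, plu, nos, stau, pum and smg, and not at gnu, png, osk or cup. These 6 genes held 11 of the 3254 peaks in the main list, which the authors made from both replicates together. Over all annotated genes, 17.7% held a main-list peak by the same rule, and over protein-coding genes 20.5%. Long genes can hold a summit by their length alone, so the genes were also read by size. A peak was found in 2 of the 3 members with a body of 10 kb or longer (orb, pum and cup), where 42.2% of all protein-coding genes of that size held one. The other 7 members held a peak in 4 cases, against 16.9% of protein-coding genes under 10 kb. A summit within 500 bp of a start was found in the same 6 members, and in 12.3% of all genes. The conservative list, also made from both replicates, held 10 peaks at the same 6 members, against 15.5% of all genes. Replicate 1's own list held a peak at 4 members (orb, plu, pum and smg), against 11.9% of all genes, and replicate 2's own list at 3 (orb, plu and pum), against 11.7% of all genes. No test was made of these shares, since the genes were chosen with earlier results of these data known.

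**Figure D1:**
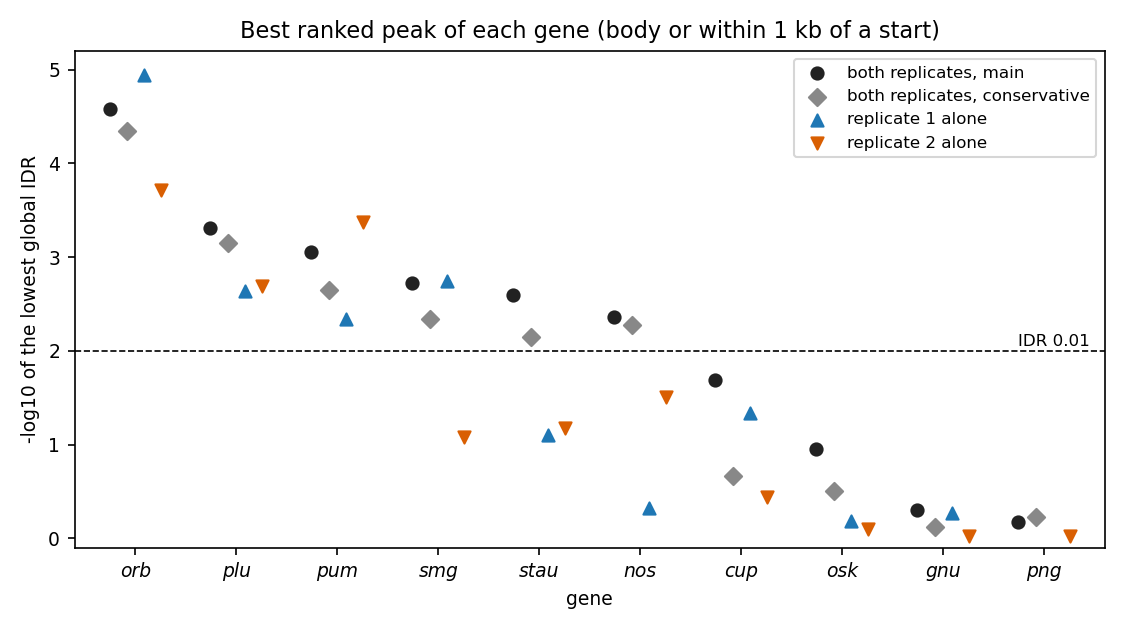
For each gene (x axis), the -log10 of the lowest global irreproducible discovery rate (IDR) of any ranked peak in its window (y axis), in the 2 joint ranked lists and in each replicate's ranked list; the dashed line is an IDR of 0.01. In the main list 6 genes lie above the line, in replicate 1 alone orb, plu, pum and smg do, and in replicate 2 alone orb, plu and pum do; png has no point for replicate 1.

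The peaks of these genes were weak for the list. Each peak carries a signal value that the authors' peak caller gave it, on a scale that is not stated, and an IDR, the expected share of irreproducible peaks among those ranked as high. The lists give no read counts, so the depth is unknown. The 11 member peaks had signals of 54.7 to 159.8 with a median of 61.7, while the whole main list had a median of 76.6 and quartiles of 58.2 and 117. Only the orb peak lay above that upper quartile.

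orb encodes the germline homologue of the cytoplasmic polyadenylation element binding proteins, which activates translation of osk and other localized mRNAs. Its peak (FBgn0004882, summit chr3R:23281109, dm6) had a signal of 159.8 in the joint list, rank 481 of 3254, with a global IDR of 2.62e-05. In replicate 1 the peak had a signal of 97.7 and in replicate 2 a signal of 60.8, and it was in both replicates' own lists. The summit was 253 bp upstream of the most upstream of 4 orb starts and 92 bp upstream of the start of Cdc16, a subunit of the anaphase-promoting complex that is transcribed the other way. The starts of these genes were 345 bp apart, so the peak cannot be assigned to either. No other of the 17 ranked peaks in the orb window entered the list.

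The PNG kinase has a catalytic subunit, encoded by png, and is activated by Plutonium and Giant nuclei, encoded by plu and gnu. Of the 3 genes only plu held a peak (FBgn0003114, summit chr2R:20263971). Its signal was 88.0 in the joint list, with an IDR of 0.000493. The replicates gave 43.9 and 44.2, the closest pair among the member peaks, and both had it in their own lists. The summit was 287 bp upstream of plu but 8 bp upstream of RpS18, a ribosomal protein gene that runs the other way from a start 295 bp away from that of plu. At gnu (FBgn0001120) the only ranked peak in the main ranked list lay in the 5′ UTR, at an IDR of 0.501 and a signal of 25.3. A main-list summit of signal 121 (chr3L:14802339) lay 41 bp past the 3′ end of gnu and 171 bp upstream of NHP2, the next gene on the same strand. It was 1021 bp from the gnu start and so was outside the window. The replicates gave that peak signals of 37.8 and 72.2, and only replicate 2 had it in its own list. At png (FBgn0000826) the strongest ranked peak, in coding sequence, had an IDR of 0.668 and a signal of 23.5. Replicate 1 had no ranked peak there at all, and the closest summit of the main list to png was 12610 bp away, beside ssx.

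Nanos and Pumilio bind together to hunchback mRNA and repress it. nos, called nanos in the annotation (FBgn0002962), held 2 main-list peaks and no peak in either replicate's own list. The summit upstream of the gene (chr3R:19156878) had a joint signal of 59.2, with 27.5 in replicate 1 and 29.2 in replicate 2. The IDR of that peak was 0.00436 in the main list but 0.492 and 0.381 in the replicates. It lay 360 bp from the nos start and 66 bp from a start of CG11779, which is transcribed the other way, overlaps nos and has a further start nearer to nos. The summit in a nos coding exon (chr3R:19157895) had a joint signal of 54.7, with 21.4 in replicate 1 and 27.2 in replicate 2. Its IDR of 0.00806 was the closest of the member peaks to the threshold of 0.01, and in the conservative ranked list its IDR was 0.0193, outside that list.

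pum (FBgn0003165) has a body of 171 kb and held 4 of the 11 peaks, all in introns. They lay in the first 17.5 kb after its most upstream start. The 3 strongest were nearly equal in the joint list, at 75.7 (chr3R:9227472), 73.5 (chr3R:9224986) and 72.7 (chr3R:9220188). Their replicates were not equal. The first had 23.5 in replicate 1 and 51.5 in replicate 2. The second had 31.9 in replicate 1 and 38.0 in replicate 2, and both of these were in replicate 2's own list alone. The third had 47.1 in replicate 1 and 25.7 in replicate 2 and was in replicate 1's own list alone. The fourth summit (chr3R:9237057), 32 bp upstream of the second start, had a joint signal of 60.3, with 40.5 and 22 in replicates 1 and 2, and was in neither replicate's own list. A further peak (chr3R:9229263) was in the conservative list alone. It had a signal of 64.7, and its IDR was 0.00368 there and 0.0298 in the main ranked list. Beyond the last main-list summit the gene held 162 more ranked peaks and none passed. The strongest of these had a signal of 48.4 at an IDR of 0.0785, and the one with the lowest IDR, 0.0241, had a signal of 40.2 and lay at the start furthest into the gene.

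**Figure D2:**
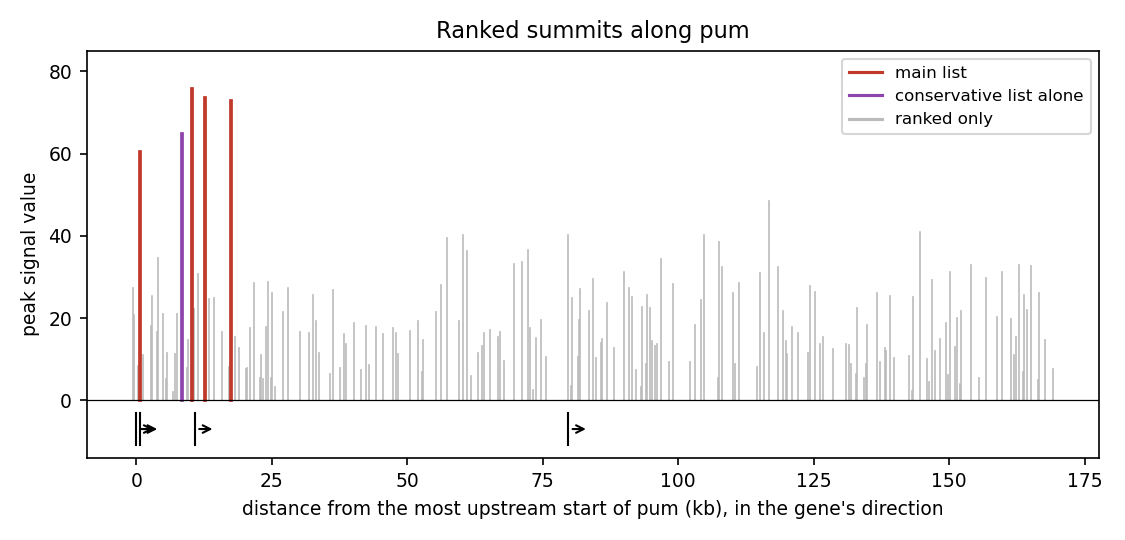
Signal (y axis, authors' unit) of the 189 ranked summits in the pum window by distance from the most upstream start in kb (x axis), with arrows below at the 4 annotated starts. The 4 main-list summits and the 1 of the conservative list alone lie within 17.5 kb of that start.

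Smaug, encoded by smg (FBgn0016070), binds nanos mRNA and recruits the deadenylation machinery. The gene held 2 peaks, both in replicate 1's own list and neither in that of replicate 2. The summit upstream of the first start (chr3L:8998046) had a joint signal of 61.7, with 36.8 in replicate 1 and 25 in replicate 2. It was 57 bp from the smg start and 138 bp from that of CG5087, which runs the other way. The intronic summit (chr3L:8996351) was 102 bp upstream of an internal smg start. Its joint signal was 59.7, with 46.2 in replicate 1 and 14.9 in replicate 2. That was the widest ratio between replicates among the member peaks, and the IDR of this peak was 0.00232 in the main ranked list and 0.327 in the conservative one. Cup, a protein that binds the cap-binding factor eIF4E and blocks initiation on osk and nos mRNA, is encoded by a gene (FBgn0000392) with 20 ranked peaks and none in the list. The best of them had an IDR of 0.0204 and a signal of 34.2, and lay in a cup intron 81 bp from the start of Galt, a gene nested there.

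stau encodes a double-stranded RNA binding protein that carries osk and bicoid mRNA to the poles of the oocyte. Its peak (FBgn0003520, summit chr2R:18125836) had a joint signal of 60.4 and an IDR of 0.00251. The replicates gave 26 and 28.4, close to each other, and neither had it in its own list. The summit was 57 bp upstream of stau itself, and Spn55B, which diverges from it, started 568 bp from the stau start. osk, whose protein nucleates the germ plasm (FBgn0003015), had 2 ranked peaks. The better one lay in a coding exon, at an IDR of 0.11 and a signal of 32.2, and no main-list summit was nearer to the start than 4781 bp.

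**Figure D3:**
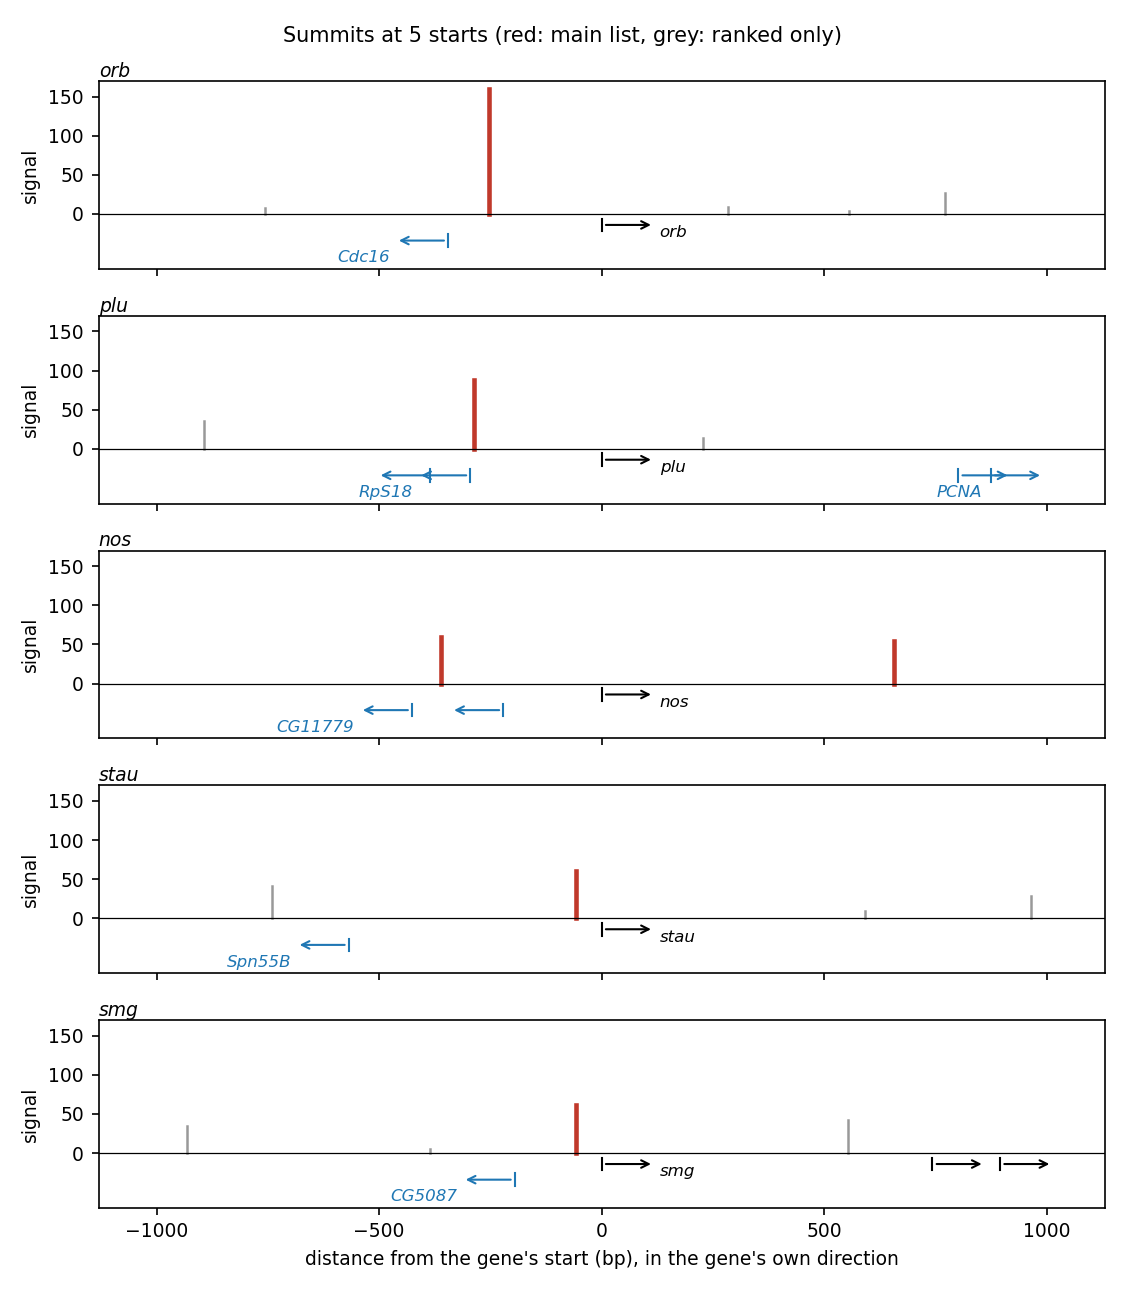
Signal (y axis) of ranked summits by distance from the start of 5 genes in bp (x axis, in the gene's own direction), main-list summits in red; black marks below are starts of the gene itself and blue ones those of neighbours. Each of these genes has a main-list summit upstream of its start and between it and a start of a gene on the other strand; the summits of stau and smg lie 57 bp from the start.

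Support from the replicates was uneven among these peaks. Both replicates' own lists held 2 of the 11 peaks (18.2%), those of orb and plu, and of all main-list peaks 39.1%. One replicate's own list held 5 of the 11 (45.5%), against 31.9% of all, and neither held 4 (36.4%), against 29% of all. All 11 were present in both replicates' ranked lists, but so were 3184 of all 3254 main-list peaks, so this does not set the member peaks apart. With 2 replicates the spread of each value is known only from that pair.

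The joint signal was close to the sum of the replicate signals. The ratio of joint signal to that sum was 0.96 to 1.13 over the 11 member peaks, with a median of 1.01, and its median was 1.00 over the 3184 main-list peaks that had a signal in both replicates. The log2 ratio of replicate 2 to replicate 1 was between -1.63 (the intronic smg peak) and 1.13 (the strongest pum peak), with a median of 0.01, and over all main-list peaks its quartiles were -0.51 and 0.32.

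**Figure D4:**
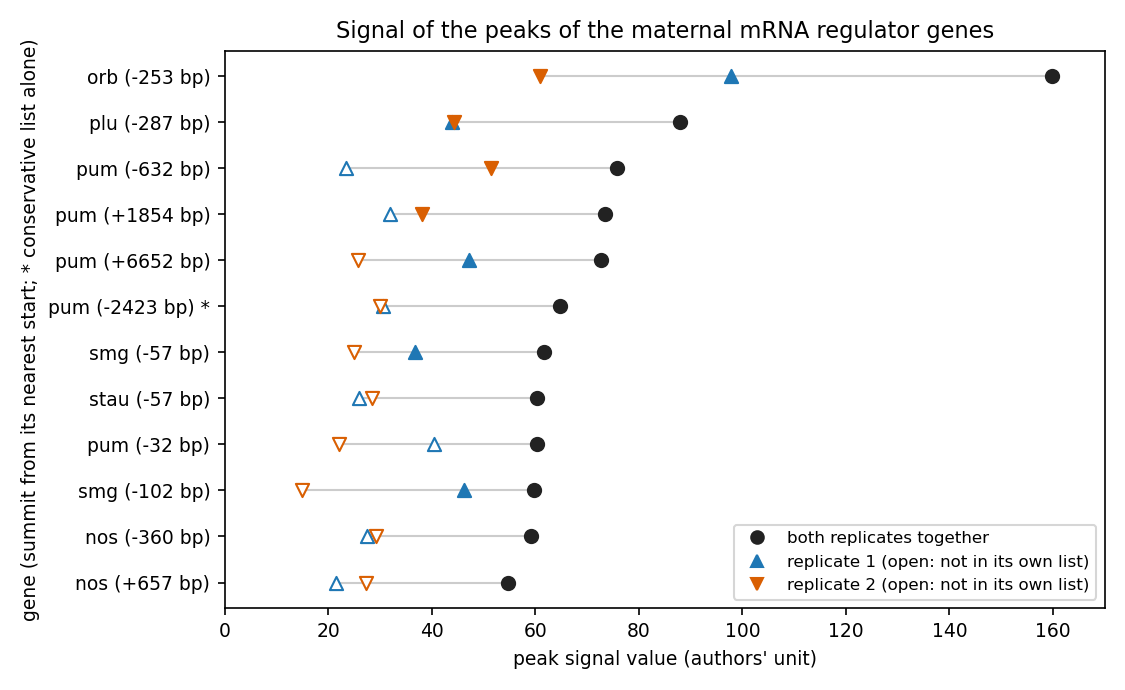
Signal (x axis, authors' unit) of each main-list peak of the 6 genes and of the pum peak of the conservative list alone (marked *), in the joint list and in each replicate; filled triangles were in that replicate's own list. Both triangles are filled for orb and plu, and neither is for stau, either nos peak, the pum peak 32 bp from a start or the one marked *.

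Most of the start-proximal summits stood in sequence shared with a gene on the other strand. Of the 7 member summits within 500 bp of a start, 5 (71.4%) lay between diverging starts at most 1000 bp apart, those at orb, plu, nos, stau and smg. The same was true of 638 of 1705 such summits in the main list (37.4%). The gene sets differ in this from the outset: 6 of the 10 members have a diverging start that near (60%), and 34.9% of all genes do. This rule was set after the values had been seen. Where each summit was given only to the gene with the nearest start, orb and plu lost their peaks, and nos, stau, pum and smg kept at least 1 each. nos kept only its coding-exon peak, which was in neither replicate's own list nor the conservative list. The lost orb and plu peaks were the only member peaks in both replicates' own lists. No share of all genes was computed under this rule.

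Per length, the windows of the 10 genes held 4.63 main-list peaks per 100 kb (11 in 238 kb), against 2.94 over the windows of all genes. pum alone held 2.32 per 100 kb and makes up most of that length. Without pum the value was 10.7 (7 peaks in 65.3 kb), and 6.13 and 3.06 in the own lists of replicates 1 and 2. The value over all genes includes long genes, and none was computed without them, so 10.7 has no like value beside it. Replicate 1's own list gave 2.1 per 100 kb in member windows and 1.82 over all genes, and replicate 2's own list gave 1.68 and 1.63. Ranked peaks, most of which are weak, were about as dense in member windows (111 per 100 kb) as over all genes (103), and 199 of the 263 ranked member peaks were in introns, 172 of these in pum alone. Of the 263, 6.46% had an IDR of at most 0.05, against 4.14% of all ranked peaks.

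The base composition under the summits fell to both sides of the typical value. A and T made up 78.2% of the 101 bases at orb and at the pum summit 1854 bp past a start, against a median of 65.3% over main-list windows (quartiles 56.4% and 72.3%). The pum summit 632 bp upstream of a start (75.2%) and the intronic smg summit (74.3%) were also above the upper quartile. The lowest shares were 39.6% at stau, 40.6% at the coding exon of nos, 46.5% upstream of nos and 49.5% at plu. The upstream smg summit (51.5%) and the pum summit 32 bp from a start (54.5%) were also under that lower quartile. The capital runs shown above, of 6 or more A or T letters, were present in 7 of the 11 windows (63.6%) and in 87.6% of all main-list windows. Of 6 words searched on both strands in these windows, TTAAAAAA was found at the intronic smg summit and in 5.85% of main-list windows. That word and CACAGTGG were taken from an earlier pass over these same data, so searching for them here is not independent. GAGAGAG, which the GAGA factor binds, was found at the pum summit 32 bp from a start and in 1.69% of main-list windows. CACAGTGG (1.63% of main-list windows), TATCGATA (the DREF site, 1.39%), CAGGTAG (the Zelda site, 0.369%) and GGTCACACT (the M1BP site, 0.554%) were in none of the 11. The 2 words that were found do not overlap each other.

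Among 49 other genes of maternal mRNA control, listed from textbook roles, 19 (38.8%) held a main-list peak, against 17.7% of all genes. By size, 7 of the 14 with a body of 10 kb or longer held one (50%), near the 42.2% of all protein-coding genes that long, and 12 of the 35 shorter ones (34.3%), against 16.9%. The conservative list had a peak at 12 of the 49 (24.5%), against 15.5% of all genes. Replicate 1's own list had one at 11 (22.4%), against 11.9% of all genes, and replicate 2's own list at 12 (24.5%), against 11.7%. Genes of mRNA localization held one in 6 of 12 cases and translational repressors in 5 of 11. Localized or translationally controlled mRNAs had 4 of 8 and germ plasm genes 2 of 3. Deadenylation genes had 1 of 6, decapping genes 1 of 5 and egg activation genes 0 of 4. These small counts by role are from the main list alone and were not split by body length, so the roles cannot be ranked by them. The strongest peak, at an intron of brat, whose protein represses hunchback mRNA with Nanos and Pumilio, had a signal of 249, with 148 in replicate 1 and 98.8 in replicate 2. Hsp83, a chaperone gene whose maternal mRNA Smaug destabilizes, had 202, with 113 in replicate 1 and 85.9 in replicate 2, 99 bp upstream of a start. Both of these, and the peak of swa (208), stood above every member peak.

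swa, needed for bicoid mRNA localization, had 208 (116 and 89.3 in replicates 1 and 2), 550 bp from the start of Marf. BicD, an adaptor for dynein transport of mRNA, had 102 (46.0 and 52.0) in an intron. tral, a translational repressor in ovarian RNP granules, had 96.0 (45.9 and 53.5), and glo, which binds nanos mRNA, had 88.2 (46.7 and 41.8). Of these, tral and glo shared their summits with sti and COX5A, whose starts were 70 bp and 28 bp away. egl, the RNA-binding partner of BicD, had 82.3 (21.7 and 64.2) and was missing from replicate 1's own list. bgcn, a partner of the germ cell differentiation factor Bam, had 79.4 (39.4 and 50.3). All 8 except egl were in both replicates' own lists, as orb and plu were among the members.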

How the data were processed

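Peaks, made by the authors from anti-GFP ChIP-seq of 2 biological replicates, came as deposited lists on dm6, per the file headers: thresholded and ranked lists for both replicates together (main and conservative) and for each replicate. The aligner, peak caller and versions are not given in the sources used here. What the deposited signal value of a peak is relative to is not stated, so it served to order peaks inside one list and to set the replicates side by side. The deposited ranked lists give global IDR as its -log10, with a cap of 5, which was turned back into an IDR. Their further per-sample columns were not used. All lists name an input file, which was not analysed here.

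Each summit was located relative to the genes of Ensembl release 115 (same assembly, 18277 genes, transposable elements left out) with Python 3.11.15, pandas 2.3.3 and numpy 2.4.6, and the placement was tested on simulated data. Of the 10 genes, 9 matched by symbol and nos was matched to nanos by hand, as were 2 of the 49 other genes. A main-list peak was in a replicate's own list when they overlapped by at least 1 base. The genes named are all 10 members, the gene with the nearest start to each member summit, and the 8 other genes with the strongest summit; the neighbours of genes without a peak, and further diverging neighbours, were added after their values were seen. The members and lists were chosen with earlier results of these data known. No test was run, since there is 1 group of 2 replicates.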

Additional observations from a re-analysis of the deposited data

How the results depend on the processing

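Of 55 alternatives, 34 left the count or value within 1.5 times of the reported one. Some of these could not move. The main list lacks 121 ranked peaks with an IDR of at most 0.01, and 0 of them lay in member windows. Adding them therefore left every member count unchanged, and adding the conservative list could only raise a count. Leaving out a replicate, by using the other replicate's own list, gave 3 to 4 members with a peak instead of 6, 4 to 5 member peaks instead of 11, 2 to 3 members with a summit within 500 bp of a start instead of 6, 11 to 12 of the 49 other genes instead of 19, and a density of 1.68 to 2.1 peaks per 100 kb instead of 4.63. A global IDR of at most 0.001 left 3 members (orb, plu and pum), 3 member peaks, 2 members with a start summit and 8 other genes. The conservative list held 12 of the other genes, and giving each summit to the nearest start left 3 members with a start summit and 12 other genes. A start window of 200 bp left 3 members. With peaks in the ranked lists counted as support, 11 of the 11 peaks were in both replicates instead of 2. By that rule 3184 of all 3254 main-list peaks were in both as well. Counting any base of a peak, or a start window of 2000 bp, added gnu (7 members). No share of all genes was computed for the IDR cut, the nearest-start rule, any-base counting or start windows of 200 and 2000 bp. The same holds for start summits in a single replicate's own list. Whether these counts differ from all genes called the same way is therefore unknown. Chosen after seeing the data, leaving out pum gave 7 peaks and a density of 10.7, and a window of 200 bp around the summit found a word at 6 of the 11 peaks instead of 2. At that width the words were also more frequent over all main-list windows. TTAAAAAA was in 14.7% of them (5.85% within 50 bp), GAGAGAG in 12.3% (1.69%) and CAGGTAG in 2.22% (0.369%). The share of all windows with any of the words is not given here, so the 6 of 11 has no like value beside it. No paired analysis was possible because there is 1 group of samples. Depth is unknown, so a missing peak at gnu, png, osk or cup means only that none passed in these lists.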

Other observations

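The other 11 of the 49 genes with a main-list peak had weaker summits, from 30.1 (Dcp2, the decapping enzyme) to 75.8 (sqd, which binds gurken mRNA). The summit at bcd, whose maternal mRNA marks the anterior pole, was 131 bp upstream of its start with a signal of 49.8, and that at hb, a target of Nanos and Pumilio, was in an intron 345 bp past a start with 74.3. The gene for the germ plasm helicase vas had an intronic summit of 53.5 that lay 22 bp from the start of vig. At tud, another germ plasm gene, the signal was 49.0 at 73 bp upstream of the start. Neither replicate's own list held the bcd, tud or this vas summit, but replicate 1's own list held 1 peak elsewhere in the vas window. These genes were named after their values were seen.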
